A study of Homo sapiens with 12 samples.

Results

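The 37 genes described here encode golgins, Golgi stacking proteins, Golgi adaptors and ion transporters, the TMED genes of the p24 family and the lectin cargo receptors. They were taken by gene symbol, as a fixed set of names, from a raw count table of 57773 genes, and each of the 37 symbols was found once. All 37 passed the filter on low counts that left 17532 genes for testing. The RNA came from A549, an established line of human lung adenocarcinoma cells, after silencing of GOLM1, which encodes a type II membrane protein of the Golgi. One group received siGOLM1-1, another siGOLM1-2 and the control group a non-targeting siRNA. Each group had 4 libraries, which the labels call biological replicates, and all 3 groups shared the same dose of 50 nM, reverse transfection with Lipofectamine RNAiMAX and harvest after 72 h. The model is therefore 1 cell line under transient silencing, with no group of untransfected cells.

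Golgins are long coiled-coil proteins that stand out from the Golgi membrane and catch incoming transport vesicles, each at its own part of the stack. Several of them are held on the trans-Golgi network by small GTPases of the Rab and Arl families. Proteins of the p24 family cycle between the endoplasmic reticulum and the Golgi in mixed complexes, where they sort GPI-anchored and other cargo into coated vesicles, and the lectins of the LMAN family carry glycoproteins along the same route. GOLM1 itself is a cycling Golgi protein, often raised in epithelial cancers.

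GOLM1 was measured first, as a check of the labels. It stood at 372, 378, 371 and 345 CPM in control replicates 1 to 4, where CPM is the usual count of a gene relative to its library's total on tested genes, after TMM scaling. With siGOLM1-1 the libraries held 38.9, 38.7, 38.8 and 37.5 CPM, and with siGOLM1-2 47.2, 44.7, 44.6 and 53.4 CPM. The knockdown groups lay far below the control. The reduction was 9.52-fold for siGOLM1-1 (log2 fold change -3.25, SE 0.07 and adjusted p = 4.97e-12) and 7.72-fold for siGOLM1-2 (log2 fold change -2.95, SE 0.07 and adjusted p = 1.57e-11), and the level was lower with siGOLM1-1 than with siGOLM1-2 (log2 fold change -0.30, SE 0.07 and adjusted p = 0.00181). Here and below, SE is on the log2 scale, n is 4 libraries per group, and adjusted p comes from edgeR's quasi-likelihood test with Benjamini-Hochberg adjustment over all genes tested. A gene was called, and is said to have risen or fallen, at an adjusted p under 0.05.

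Libraries held between 41.6 M and 71.3 M counts. The control libraries deviated in pairs. Across all genes tested, which are not independent replicates, the deviations of control replicates 1 and 2 from their group mean correlated at 0.33 and those of replicates 3 and 4 at 0.388, while correlations across these pairs ran from -0.704 to -0.66. Deviations within a group sum to 0 and so are negative in part by construction. The labels give no batch for these libraries. Every comparison with control was therefore repeated with control replicates 1 and 2 alone and with replicates 3 and 4 alone, and the value with a pair is given beside each call against control that it changed. The siRNA groups were not even either. Deviations of siGOLM1-2 replicate 4 correlated at -0.572, -0.4 and -0.647 with those of siGOLM1-2 replicates 1, 2 and 3. Correlations among siGOLM1-2 replicates 1, 2 and 3 ran from -0.137 to 0.072. Each of the 12 libraries was also left out in turn. Ranges given after the libraries without which a call was lost are over all 12 of these fits, including those that kept the call. All 6 epithelial markers examined were detected, and their summed level was 6668 to 9757 CPM in control, 5357 to 5755 CPM with siGOLM1-1 and 6439 to 6980 CPM with siGOLM1-2. EPCAM was the lowest, at 3.02 to 6.28 CPM over all libraries. The markers did not move alike. KRT8 ran from 3204 to 4438 CPM in control, from 1636 to 2144 CPM with siGOLM1-1 and from 3345 to 3556 CPM with siGOLM1-2. In the same order, KRT18 ran from 1431 to 2146, 826 to 974 and 1468 to 1642 CPM. KRT7 ran from 1866 to 2958, 2313 to 2787 and 1138 to 1584 CPM. KRT19 ran from 64.5 to 77.7, 51.5 to 141.8 and 154.6 to 330.9 CPM, and the CDH1 ranges overlapped. Of 9 markers of immune, endothelial and mesenchymal cells, 6 stayed under 1 CPM in every library, among them PTPRC, CD3E and CD68. COL1A1 at 21.3 to 92.8 CPM and ACTA2 at 31.1 to 55.7 CPM made up most of a summed level of 77.0 to 122.9 CPM in control, 81.3 to 132.3 CPM with siGOLM1-1 and 78.3 to 84.9 CPM with siGOLM1-2. Their part in the results below was not tested. In bulk RNA, fewer cells of a type and less RNA per cell cannot be told apart.

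Promoters of 4 of the 10 members that lay at least 0.5 apart between the siRNAs on the log2 scale are shown first, to set promoters with a sequence known from Golgi stress beside one without it. RefSeq (GRCh38.p14) promoters, 250 bases before to 50 after each annotated start, matched 32 of the 37 members with 38 promoters. GOLGA7, USO1, GOLGA4, TMED9 and TMED4 were not matched. ACBD3, GOLT1B and TMED10 are shown as genes higher with siGOLM1-1 than with siGOLM1-2, and TMED3 as one that was lower. They were chosen after their values and motif matches had been seen. Capitals mark the letters ACGTGGC or their reverse complement, the core of the Golgi apparatus stress response element, a site through which Golgi genes are induced when glycosylation or transport is overloaded. The windows lie at chr1:226186692-226186991 on the minus strand (ACBD3), chr12:21501539-21501838 on the plus strand (GOLT1B), chr14:75176563-75176862 on the minus strand (TMED10) and chr15:79310862-79311161 on the plus strand (TMED3).
ACBD3: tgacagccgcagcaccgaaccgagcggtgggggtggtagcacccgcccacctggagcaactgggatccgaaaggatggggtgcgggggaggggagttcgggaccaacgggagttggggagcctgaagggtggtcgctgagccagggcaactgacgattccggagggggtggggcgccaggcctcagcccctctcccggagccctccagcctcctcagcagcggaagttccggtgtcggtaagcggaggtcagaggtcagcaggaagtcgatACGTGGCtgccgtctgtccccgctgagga
GOLT1B: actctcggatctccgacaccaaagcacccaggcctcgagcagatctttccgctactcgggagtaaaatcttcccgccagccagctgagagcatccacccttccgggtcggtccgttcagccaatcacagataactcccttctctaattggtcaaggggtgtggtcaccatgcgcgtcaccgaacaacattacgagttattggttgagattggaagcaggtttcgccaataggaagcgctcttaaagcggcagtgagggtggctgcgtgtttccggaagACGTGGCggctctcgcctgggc
TMED10: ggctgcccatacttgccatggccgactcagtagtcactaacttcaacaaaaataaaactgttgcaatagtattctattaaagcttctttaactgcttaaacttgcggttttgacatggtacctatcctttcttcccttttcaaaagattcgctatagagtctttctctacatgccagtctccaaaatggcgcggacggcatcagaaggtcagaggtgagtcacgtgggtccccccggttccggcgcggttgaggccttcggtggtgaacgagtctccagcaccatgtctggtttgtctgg
TMED3: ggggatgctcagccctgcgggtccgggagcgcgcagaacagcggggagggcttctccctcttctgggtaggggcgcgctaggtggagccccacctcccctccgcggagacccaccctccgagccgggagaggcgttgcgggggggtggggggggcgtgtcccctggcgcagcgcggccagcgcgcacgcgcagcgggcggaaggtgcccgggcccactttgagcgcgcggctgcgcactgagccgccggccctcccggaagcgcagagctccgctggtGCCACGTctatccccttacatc

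In ACBD3 the element began 21 bases after the annotated start, and in GOLT1B and TMED3 it began 28 bases after it. The TMED10 window held none of the 4 motifs searched. Among the 10 members at least 0.5 apart, ACGTGGC was found for ACBD3, GOLT1B and TMED3 and not for GOLT1A and TGOLN2, the 2 furthest apart, nor for TMED10, LMAN1, ATP2C1 and GCC2, and TMED4 had no matched promoter. Over both strands, ACGTGGC was found in 8 of the 38 member promoters (21.1%), those of ACBD3, GOLGA1, GOLGA3, GOLGA5, GOLT1B, GORASP2, TMED2 and TMED3. It was found in 3.22% of all 35116 promoters of this length and in 4.05% of the 15939 promoters of genes tested. The core of the unfolded protein response element, TGACGTGG, whose last letters ACGTGG also begin the Golgi element, was in the promoters of GOLGA1 and GOLGA5 (5.26% of member promoters and 0.729% of all). The cAMP response element TGACGTCA was in those of GCC1, GOLPH3 and TMF1 (7.89% and 1.85%). The endoplasmic reticulum stress response element, CCAAT and CCACG set 9 bases apart, was in no member promoter and in 0.0769% of all. These are matches of letters, not measured sites. Of the genes with the Golgi element, ACBD3 was higher and TMED3 lower with siGOLM1-1 than with siGOLM1-2, while GORASP2 was called in no comparison. Any link between the element and these values was not tested.

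With siGOLM1-1, 12 of the 37 members rose (32.4%, against 23.7% of all genes tested), 5 fell (13.5%, against 23.8%) and 20 were not called. The libraries of 14 members did not overlap between siGOLM1-1 and control (37.8%, against 41.0% of all genes). The median log2 fold change of the members was 0.11, beside -0.01 over all genes. With siGOLM1-2, 10 rose (27.0%, against 21.8%), 11 fell (29.7%, against 23.2%) and 16 were not called. Groups did not overlap for 19 members (51.4%, against 45.9%), and the median was -0.04, beside -0.01. Called in either direction were 45.9% of the members with siGOLM1-1 (against 47.5% of all genes) and 56.8% with siGOLM1-2 (against 45.0%). No test set the members against all genes. Between the siRNAs, 17 members were higher with siGOLM1-1 (45.9%, against 27.9%), 6 were lower (16.2%, against 26.5%) and 14 were not called. Groups did not overlap for 20 members (54.1%, against 48.4%), and the median was 0.17, beside 0.02. Both comparisons with control use the same 4 control libraries, so their values are not independent of each other.

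These splits moved with the scaling of the libraries. With library totals in place of TMM factors, 9 members rose and 5 fell with siGOLM1-1, 11 rose and 8 fell with siGOLM1-2, and between the siRNAs 7 were higher and 9 lower with siGOLM1-1, so that the majority turned. That scaling moved the median of all genes between the siRNAs from 0.02 to -0.12 on the log2 scale. Other fits ended single calls. With no filter beyond 1 count, calls were lost for LMAN2 and TMED2 with siGOLM1-1, for GOLGA5, LMAN2L, TMED4, GCC2 and GOLGA1 with siGOLM1-2, and for GOLGA2, GOLGA7, TMEM165, USO1 and LMAN2L between the siRNAs. With only the groups compared in the fit, those of GOLPH3, TMED2 and TMED8 with siGOLM1-1 and of GOLGA2, GOLGA7, TMEM165 and USO1 between the siRNAs were lost. No called member changed sign under any of the 21 alternatives tried.

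**Figure D1:**
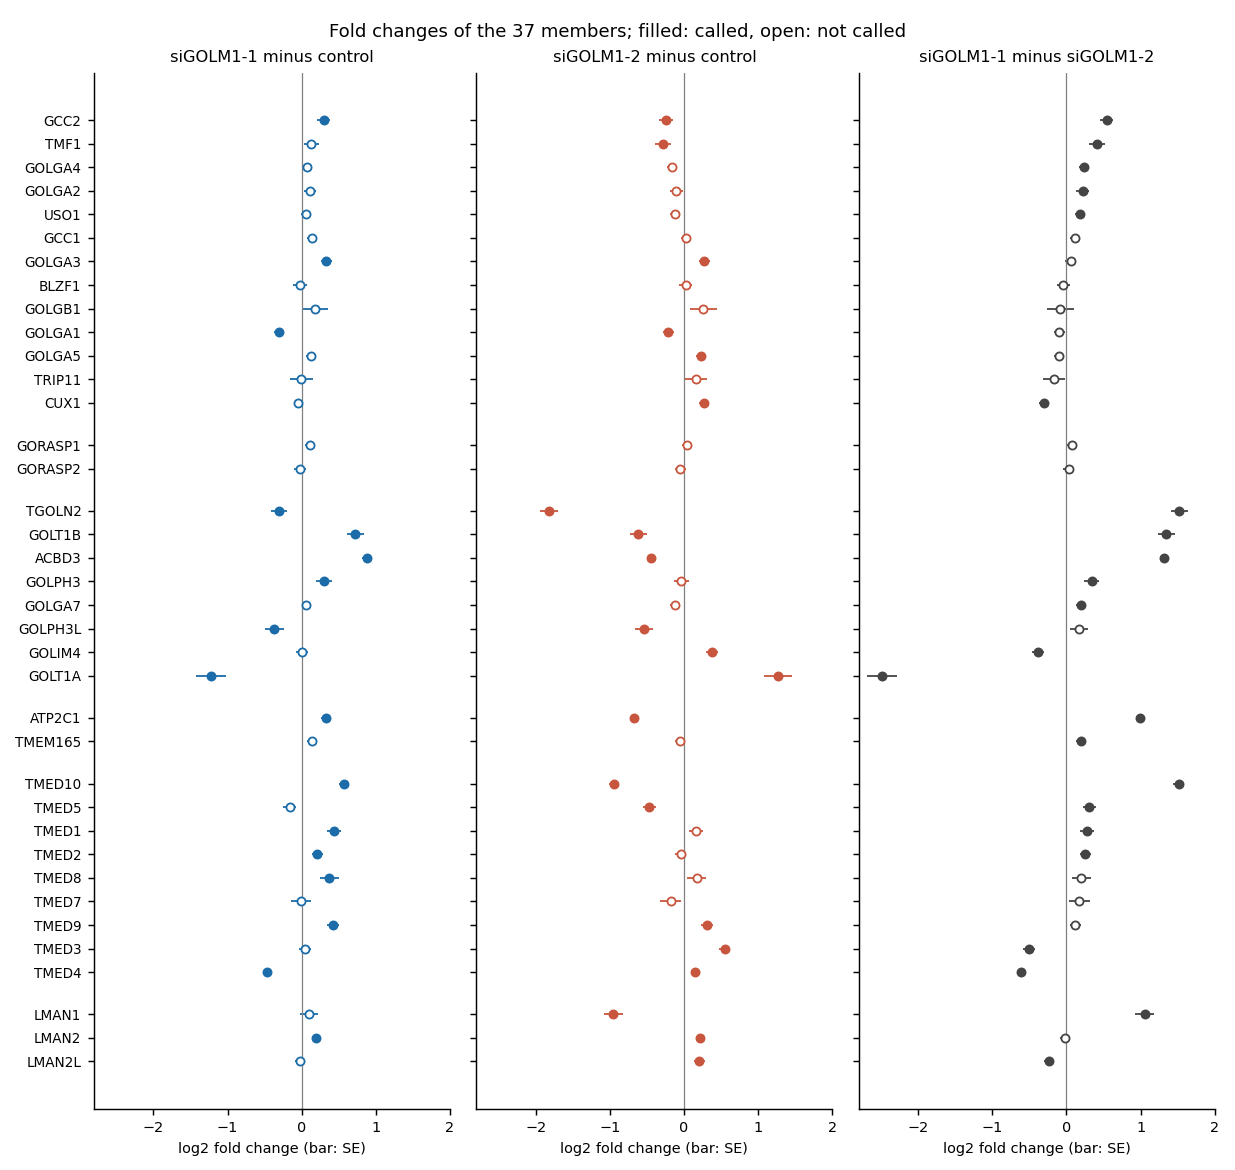
Log2 fold change of each of the 37 members, ordered by role, for siGOLM1-1 minus control (left), siGOLM1-2 minus control (middle) and siGOLM1-1 minus siGOLM1-2 (right); bars are SE, filled points are called (adjusted p under 0.05) and open points are not. GOLT1A has the lowest and TGOLN2 and TMED10 the highest values in the right panel, while most golgins lie near 0; with library totals alone 7 members in place of 17 are called higher in that panel.

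Of the 13 golgins and vesicle tethers, 2 rose, 1 fell and 10 were not called with siGOLM1-1, and with siGOLM1-2 3 rose, 3 fell and 7 were not called. Between the siRNAs 5 were higher with siGOLM1-1, 1 was lower and 7 were not called. The golgins called came to 23.1%, 46.2% and 46.2% in these comparisons, beside 47.5%, 45.0% and 54.4% of all genes tested. Under scaling by library totals alone that last split turned to 1 higher and 3 lower, and 3 rose and 0 fell with siGOLM1-2. Their log2 fold changes were small, from -0.31 to 0.33 with siGOLM1-1 and from -0.28 to 0.27 with siGOLM1-2. GOLGA3, a golgin of the Golgi stack, was higher with either siRNA. It stood at 120.4, 95.4, 104 and 111 CPM in control, at 136, 130.3, 132 and 144 CPM with siGOLM1-1 and at 137, 127, 132 and 125 CPM with siGOLM1-2. The knockdown libraries lay above the control libraries. The change was log2 fold change 0.33, SE 0.07 and adjusted p = 0.00214 with siGOLM1-1 and log2 fold change 0.27, SE 0.07 and adjusted p = 0.0082 with siGOLM1-2, and no difference between the siRNAs was called (0.06, SE 0.07).

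GOLGA1, a golgin of the trans-Golgi network held there by the GTPase ARL1, went the other way. Its libraries held 53.5, 51.4, 55.1 and 53.8 CPM in control, 43.9, 43.9, 43.2 and 41.7 CPM with siGOLM1-1 and 48.1, 47.3, 49.3 and 39.8 CPM with siGOLM1-2. Again the control libraries did not overlap with the others. GOLGA1 fell with siGOLM1-1 (log2 fold change -0.31, SE 0.07 and adjusted p = 0.0028) and with siGOLM1-2 (log2 fold change -0.21, SE 0.07 and adjusted p = 0.025). The siGOLM1-2 call held in 14 of 21 alternatives. It was lost with either pair of control libraries alone (-0.19 and -0.22), with library totals alone (-0.14), with no filter beyond 1 count (-0.22) and without control replicate 3, control replicate 4 or siGOLM1-2 replicate 4 (-0.25 to -0.15). In the annotation, 14.7% of the exon length of GOLGA1 is shared on the same strand with SCAI, which reached 9.83 CPM at most, and how such reads were assigned is not given in the sources used here.

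GCC2, which like GOLGA1 carries a GRIP domain and sits on the trans-Golgi network, differed most between the siRNAs among the golgins. It stood at 51.2, 52.8, 64.0 and 66.5 CPM in control, at 73.8, 66.2, 79.1 and 68.9 CPM with siGOLM1-1 and at 48.1, 51.9, 50.1 and 47.6 CPM with siGOLM1-2. The siRNA groups did not overlap with each other, and each overlapped with the control, whose replicates 1 and 2 lay near the siGOLM1-2 libraries and whose replicates 3 and 4 lay near those of siGOLM1-1. The difference between the siRNAs was log2 fold change 0.54, SE 0.09 and adjusted p = 0.000195, and it was called in all 21 alternatives. Against control, GCC2 rose with siGOLM1-1 (log2 fold change 0.30, SE 0.09 and adjusted p = 0.0156) and fell with siGOLM1-2 (log2 fold change -0.25, SE 0.09 and adjusted p = 0.04), but each call depended on which controls were used. Against only control replicates 1 and 2 the values were 0.47 (called) and -0.08 (not called), and with replicates 3 and 4 alone they were 0.15 (not called) and -0.39 (called). Over the 21 alternatives the rise was called in 18 and the fall in 11. The rise lost its call without control replicate 1 or siGOLM1-1 replicate 3, and the fall with DESeq2 size factors (-0.23), with library totals alone (-0.17) and without control replicate 3, control replicate 4 or any 1 siGOLM1-2 library (values from -0.31 to -0.18).

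TMF1, a Rab-binding golgin, showed a related pattern. Its control libraries held 54.8, 53.9, 45.8 and 44.6 CPM, those of siGOLM1-1 63.5, 52.5, 55.6 and 46.5 CPM and those of siGOLM1-2 42.3, 45.0, 40.4 and 36.1 CPM. The siGOLM1-2 libraries were the lowest, with an overlap with control. TMF1 was higher with siGOLM1-1 than with siGOLM1-2 (log2 fold change 0.41, SE 0.11 and adjusted p = 0.0044, but 0.28 and not called with library totals alone) and fell with siGOLM1-2 against control (log2 fold change -0.28, SE 0.11 and adjusted p = 0.0426), while the value with siGOLM1-1 was 0.13 (SE 0.11) and not called. The fall was -0.41 with control replicates 1 and 2 alone and -0.13, not called, with replicates 3 and 4 alone. It was called in 10 of 21 alternatives, not with DESeq2 or its size factors (-0.26 in each) or library totals alone (-0.21), and lost without any 1 of 7 libraries (control 1 and 2, siGOLM1-1 2 and 3, siGOLM1-2 1, 3 and 4), with values from -0.33 to -0.22.

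GOLGA4, GOLGA2 and USO1 were called between the siRNAs and not against control, except that GOLGA2 was called higher with siGOLM1-1 against control replicates 1 and 2 alone (0.24). GOLGA4, another trans-Golgi golgin, ran from 205 to 234 CPM in control, from 218 to 247 CPM with siGOLM1-1 and from 191 to 211 CPM with siGOLM1-2 (log2 fold change 0.24, SE 0.07 and adjusted p = 0.00987). GOLGA2, the main tether of the cis-Golgi, ran from 80.0 to 98.1 CPM in control, from 87.5 to 109 CPM with siGOLM1-1 and from 80.4 to 83.2 CPM with siGOLM1-2 (log2 fold change 0.22, SE 0.08 and adjusted p = 0.0408). Its control replicates 1 and 2 (81.3 and 80.0 CPM) lay below replicates 3 and 4 (93.6 and 98.1 CPM). USO1, the tether that binds GOLGA2, ran from 122 to 138 CPM in control, from 125 to 144 CPM with siGOLM1-1 and from 114 to 128 CPM with siGOLM1-2, with overlapping siRNA groups (log2 fold change 0.18, SE 0.07 and adjusted p = 0.0327). With library totals alone the differences were 0.11, 0.08 and 0.05, and none of these 3 was called. The GOLGA2 call, made in 12 of 21 alternatives, was also lost without siGOLM1-1 replicate 3 or 4 or any 1 siGOLM1-2 library (0.15 to 0.26), and that of USO1, made in 13, without siGOLM1-1 replicate 1 or 3 or siGOLM1-2 replicate 1, 3 or 4 (0.16 to 0.22). The related sequences GOLGA2P5 and GOLGA2P7 reached 10.6 and 9.72 CPM, so some reads may have been split among them.

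CUX1 and GOLGA5 rose with siGOLM1-2. The CUX1 locus encodes both a homeodomain transcription factor and a Golgi coiled-coil protein, and counts per gene do not tell these transcripts apart. CUX1 stood at 162, 154, 143 and 146 CPM in control, at 154, 144, 144 and 145 CPM with siGOLM1-1 and at 187, 183, 186 and 171 CPM with siGOLM1-2. Its siGOLM1-2 libraries were above all others. CUX1 rose with siGOLM1-2 (log2 fold change 0.27, SE 0.06 and adjusted p = 0.00305) and was lower with siGOLM1-1 than with siGOLM1-2 (log2 fold change -0.31, SE 0.06 and adjusted p = 0.00072), and the value for siGOLM1-1 against control was -0.05 (SE 0.06). With control replicates 1 and 2 alone the rise was 0.20 and was not called. GOLGA5, a membrane-anchored golgin, ran from 60.9 to 71.3 CPM in control, from 66.7 to 74.5 CPM with siGOLM1-1 and from 71.7 to 81.2 CPM with siGOLM1-2. It rose with siGOLM1-2 (log2 fold change 0.23, SE 0.07 and adjusted p = 0.0176), a call made in 17 of 21 alternatives and lost with control replicates 3 and 4 alone (0.18) and without siGOLM1-2 replicate 2 or 4 (0.19 to 0.27).

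The remaining golgins were not called in any of the 3 comparisons. They were GOLGB1 (giantin), TRIP11, GCC1 and BLZF1. GOLGB1 spread widely, from 111 to 167 CPM in control, 109 to 204 CPM with siGOLM1-1 and 126 to 177 CPM with siGOLM1-2, and its log2 fold changes were 0.18 and 0.26 with an SE of 0.18. TRIP11, a tether at the cis-Golgi, was at -0.00 and 0.16 (SE 0.15) and was called between the siRNAs in 1 of 21 alternatives. For both genes siGOLM1-1 replicate 1 was the highest library of its group. GCC1 ran from 35.6 to 38.2 CPM in control and from 38.2 to 44.8 CPM with siGOLM1-1, which did not overlap, yet its value of 0.14 (SE 0.06) missed the threshold in edgeR. The DESeq2 fit of all 12 libraries called it (0.15), while the authors' deposited table, also made with DESeq2, did not (0.15). BLZF1 stayed between 19.5 and 27.1 CPM in all 12 libraries. The stacking proteins, which join Golgi cisternae to each other, were not called either. GORASP1 ran from 51.6 to 58.3 CPM in control, 54.5 to 62.8 CPM with siGOLM1-1 and 54.5 to 57.1 CPM with siGOLM1-2, and GORASP2 from 89.96 to 102, 82.0 to 104 and 89.9 to 100.2 CPM. Their 4 log2 fold changes against control lay between -0.05 and 0.11, with SE of 0.07 to 0.08.

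**Figure D2:**
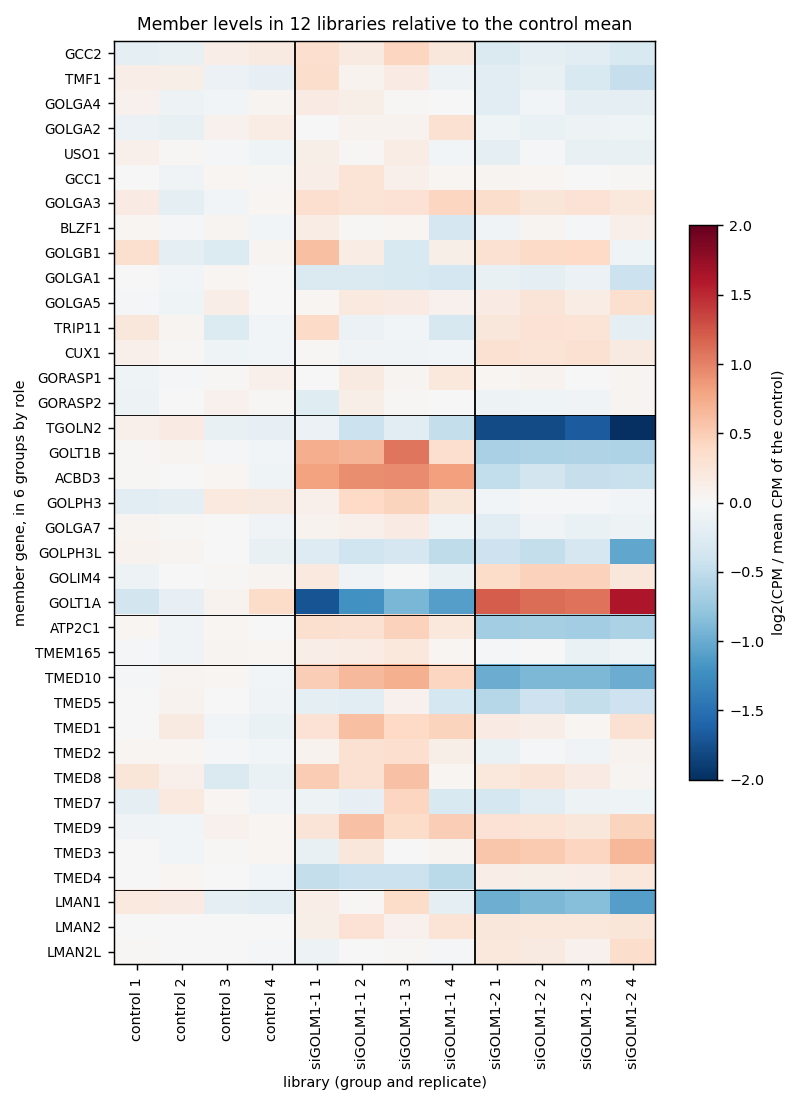
Level of each member in each of the 12 libraries, as log2 of its CPM over the mean CPM of the 4 control libraries; blue is lower and red is higher, vertical lines part the groups and horizontal lines part the 6 roles. TGOLN2, TMED10 and LMAN1 are blue in all siGOLM1-2 libraries, GOLT1A is blue with siGOLM1-1 and red with siGOLM1-2, and control replicates 1 and 2 differ in tint from replicates 3 and 4 for GOLPH3, GCC2 and LMAN1.

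The 8 adaptors and other Golgi proteins had the widest span of log2 fold changes among the roles in each comparison, and no test compared the roles. With siGOLM1-1 3 rose, 3 fell and 2 were not called, with siGOLM1-2 2 rose, 4 fell and 2 were not called, and between the siRNAs 5 were higher, 2 lower and 1 not called. Those called came to 75.0%, 75.0% and 87.5%, beside 47.5%, 45.0% and 54.4% of all genes. With library totals alone the last count was 3 higher, 2 lower and 3 not called. TGOLN2 (ENSG00000152291), which cycles between the trans-Golgi network and the cell surface and is widely used to mark that network, had the largest fall of any member. It stood at 383, 399, 319.8 and 319 CPM in control, at 328, 263, 305 and 254 CPM with siGOLM1-1 and at 103, 103, 113 and 83.6 CPM with siGOLM1-2. The siGOLM1-2 libraries were far below the other 8, and the siGOLM1-1 libraries overlapped with the control, of which replicates 1 and 2 were the higher pair. TGOLN2 was 3.54-fold lower with siGOLM1-2 than in control (log2 fold change -1.82, SE 0.12 and adjusted p = 1.01e-07) and 2.87-fold higher with siGOLM1-1 than with siGOLM1-2 (log2 fold change 1.52, SE 0.12 and adjusted p = 1.36e-07).

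With siGOLM1-2 the fall of TGOLN2 was -1.97 and -1.65 with each control pair alone. Its fall with siGOLM1-1 was smaller (log2 fold change -0.31, SE 0.11 and adjusted p = 0.0376) and unsteady. It was -0.44 with control replicates 1 and 2 alone and -0.14, not called, with replicates 3 and 4 alone. The call, made in 14 of 21 alternatives, was lost without any 1 of 6 libraries (control 1 and 2, siGOLM1-1 2 and 4, siGOLM1-2 1 and 2), with values from -0.37 to -0.23.

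ACBD3 (ENSG00000182827), a scaffold that binds giantin and recruits a phosphatidylinositol kinase to the Golgi, moved in opposite directions with the siRNAs. Its control libraries held 39.9, 39.4, 40.2 and 36.6 CPM, those of siGOLM1-1 68.4, 74.4, 75.2 and 68.7 CPM and those of siGOLM1-2 27.7, 30.2, 28.4 and 28.7 CPM. The 3 groups were separate, with siGOLM1-1 highest and siGOLM1-2 lowest. ACBD3 rose 1.84-fold with siGOLM1-1 (log2 fold change 0.88, SE 0.06 and adjusted p = 1.58e-07) and fell 1.36-fold with siGOLM1-2 (log2 fold change -0.44, SE 0.06 and adjusted p = 8.57e-05). Between the siRNAs it differed 2.495-fold (log2 fold change 1.32, SE 0.06 and adjusted p = 2.55e-09). Across the alternatives these values ran from 0.82 to 0.91, from -0.47 to -0.37 and from 1.19 to 1.35, all called.

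GOLT1B (ENSG00000111711), a small membrane protein related to yeast Got1, followed the same order of groups. It stood at 36.7, 37.2, 35.1 and 34.7 CPM in control, at 59.4, 57.3, 75.6 and 45.4 CPM with siGOLM1-1 and at 22.8, 23.5, 23.7 and 23.4 CPM with siGOLM1-2. The siGOLM1-1 libraries were the highest and the most spread, the siGOLM1-2 libraries the lowest and the tightest. GOLT1B rose 1.66-fold with siGOLM1-1 (log2 fold change 0.73, SE 0.11 and adjusted p = 0.000157) and fell 1.54-fold with siGOLM1-2 (log2 fold change -0.62, SE 0.12 and adjusted p = 0.000654), with a difference of log2 fold change 1.35, SE 0.12 and adjusted p = 4.71e-07 between the siRNAs.

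Its paralog GOLT1A (ENSG00000174567) showed the reverse order, at a far lower level. GOLT1A stood at 2.702, 3.10, 3.66 and 4.49 CPM in control, at 1.05, 1.51, 1.84 and 1.63 CPM with siGOLM1-1 and at 8.07, 7.53, 7.42 and 10.7 CPM with siGOLM1-2. None of the groups overlapped. It fell 2.33-fold with siGOLM1-1 (log2 fold change -1.22, SE 0.20 and adjusted p = 0.000253) and rose 2.41-fold with siGOLM1-2 (log2 fold change 1.27, SE 0.19 and adjusted p = 0.000132), and the 5.62-fold difference between the siRNAs (log2 fold change -2.49, SE 0.20 and adjusted p = 2.89e-07) was the largest among the members. The values against control differed with the control pair. They were -0.95 and 1.54 with control replicates 1 and 2 alone and -1.44 and 1.06 with replicates 3 and 4 alone. The difference between the siRNAs was -2.49 and -2.50 in these fits.

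GOLPH3, which binds a phosphoinositide on the trans-Golgi and links the membrane to a myosin, split with the control pairs. It stood at 94.4, 96.8, 127 and 125 CPM in control, at 119, 145, 150.2 and 131 CPM with siGOLM1-1 and at 106, 109, 109 and 107 CPM with siGOLM1-2. The siGOLM1-2 libraries lay between the control pairs. GOLPH3 rose with siGOLM1-1 (log2 fold change 0.30, SE 0.10 and adjusted p = 0.0263) and was higher with siGOLM1-1 than with siGOLM1-2 (log2 fold change 0.34, SE 0.10 and adjusted p = 0.0124). The rise was 0.51 with control replicates 1 and 2 alone and 0.13, not called, with replicates 3 and 4 alone, and it lost its call without control replicate 1 or 2 or siGOLM1-1 replicate 2 or 3 (0.23 to 0.37). With library totals alone the difference between the siRNAs was 0.21 and not called.

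GOLPH3L, the paralog of GOLPH3, was lower with either siRNA. Its libraries held 44.1, 43.8, 42.5 and 38.0 CPM in control, 35.2, 32.0, 33.4 and 29.7 CPM with siGOLM1-1 and 31.7, 30.1, 33.5 and 20.5 CPM with siGOLM1-2. The knockdown libraries all lay below the control libraries, with siGOLM1-2 replicate 4 the lowest. It fell by 0.37 on the log2 scale with siGOLM1-1 (SE 0.13, adjusted p = 0.0255) and by 0.54 with siGOLM1-2 (SE 0.13, adjusted p = 0.00312). The first of these, called in 16 of 21 alternatives, lost its call with control replicates 3 and 4 alone (-0.29) and without control replicate 1 or 2 or siGOLM1-1 replicate 2 or 4 (-0.42 to -0.33).

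GOLIM4, a cis-Golgi protein that cycles through endosomes and is degraded under high manganese, stood at 48.5, 52.1, 52.9 and 53.9 CPM in control, at 59.0, 49.2, 51.6 and 47.5 CPM with siGOLM1-1 and at 67.0, 71.0, 71.3 and 60.9 CPM with siGOLM1-2. The siGOLM1-2 libraries were above all others. It rose with siGOLM1-2 (log2 fold change 0.38, SE 0.08 and adjusted p = 0.00152) and differed between the siRNAs (log2 fold change -0.38, SE 0.08 and adjusted p = 0.0011), with a value of 0.00 (SE 0.08) for siGOLM1-1. GOLGA7, a partner of the Ras palmitoyltransferase ZDHHC9, ran from 63.2 to 69.3 CPM in control, from 63.0 to 74.5 CPM with siGOLM1-1 and from 57.7 to 63.3 CPM with siGOLM1-2. It was called between the siRNAs (log2 fold change 0.19, SE 0.07 and adjusted p = 0.0237) and in 15 of 21 alternatives, but not with library totals alone (0.06) nor without siGOLM1-1 replicate 3 or siGOLM1-2 replicate 1 or 3 (0.16 to 0.24).

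Of the ion transporters, ATP2C1 (ENSG00000017260), the calcium and manganese pump of the Golgi membrane, was high with siGOLM1-1 and low with siGOLM1-2. It stood at 95.0, 88.3, 94.8 and 91.7 CPM in control, at 116, 114, 128 and 107 CPM with siGOLM1-1 and at 56.8, 58.3, 57.4 and 59.8 CPM with siGOLM1-2. The groups were separate. The values were log2 fold change 0.33, SE 0.06 and adjusted p = 0.000817 with siGOLM1-1, log2 fold change -0.67, SE 0.06 and adjusted p = 2.91e-06 with siGOLM1-2 and log2 fold change 1.00, SE 0.06 and adjusted p = 3.27e-08 between them, a 2.00-fold difference. TMEM165, a manganese transporter of the Golgi, ran from 64.8 to 70.8 CPM in control, from 70.2 to 79.0 CPM with siGOLM1-1 and from 62.1 to 68.2 CPM with siGOLM1-2. It was called between the siRNAs (log2 fold change 0.19, SE 0.06 and adjusted p = 0.0156) and in 17 of 21 alternatives, though not with library totals alone (0.06) nor without siGOLM1-2 replicate 3 (0.17). Against control with siGOLM1-1 it was at 0.14 and not called, while the authors' deposited table called it.

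**Figure D3:**
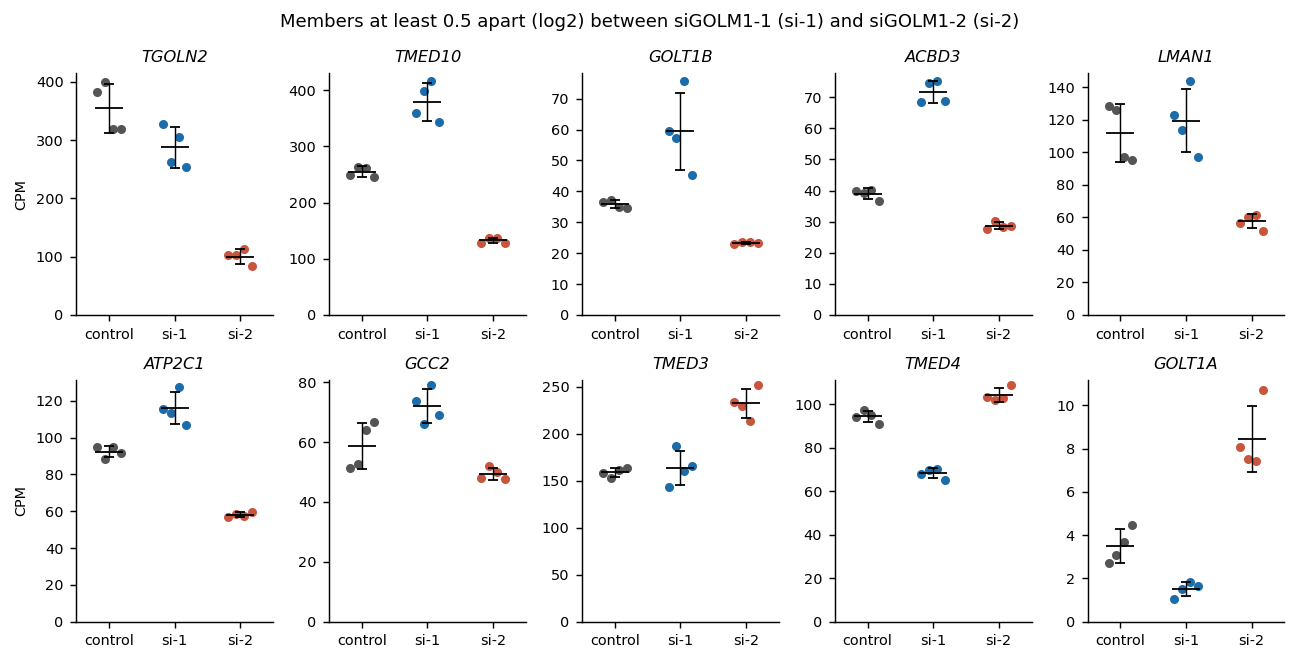
CPM per library of the 10 members at least 0.5 apart on the log2 scale between siGOLM1-1 (si-1) and siGOLM1-2 (si-2); points are libraries in replicate order, the horizontal line is the group mean and bars are SD, n = 4, with axes from 0. TGOLN2 is at 318.5 CPM or more in control and at 112.5 CPM or less with siGOLM1-2, and TMED10, GOLT1B, ACBD3 and ATP2C1 are highest with siGOLM1-1, while GOLT1A, TMED3 and TMED4 are highest with siGOLM1-2.

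Among the 9 TMED genes, 5 rose, 1 fell and 3 were not called with siGOLM1-1, 3 rose, 2 fell and 4 were not called with siGOLM1-2, and 4 were higher, 2 lower and 3 not called between the siRNAs. Over all genes tested 23.7% rose and 23.8% fell with siGOLM1-1, 21.8% rose and 23.2% fell with siGOLM1-2, and 27.9% were higher and 26.5% lower between the siRNAs, and no test set the family against them. With library totals alone these counts were 3 and 1, 4 and 2, and 1 and 2. TMED10 (ENSG00000170348), which with TMED2 forms the core of the p24 complexes and binds both vesicle coats, had the largest values. Its control libraries held 249, 264, 263 and 245 CPM, those of siGOLM1-1 359.6, 399, 416 and 343 CPM and those of siGOLM1-2 129, 137, 137 and 128 CPM. The lowest siGOLM1-1 library was above every control library, and the highest siGOLM1-2 library was below every control library. TMED10 rose 1.49-fold with siGOLM1-1 (log2 fold change 0.57, SE 0.07 and adjusted p = 2.01e-05), fell 1.92-fold with siGOLM1-2 (log2 fold change -0.94, SE 0.07 and adjusted p = 4.3e-07) and was 2.86-fold apart between them (log2 fold change 1.52, SE 0.07 and adjusted p = 2.15e-09). These values ran from 0.52 to 0.62, from -0.97 to -0.87 and from 1.38 to 1.56 over the alternatives. The related sequences TMED10P1 and TMED10P2 were at 0.0711 CPM or less.

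TMED2, the partner of TMED10 in these complexes, moved less. It stood at 319, 319, 304 and 298 CPM in control, at 326, 382, 393 and 335 CPM with siGOLM1-1 and at 283, 301, 295 and 324 CPM with siGOLM1-2. It rose with siGOLM1-1 (log2 fold change 0.21, SE 0.08 and adjusted p = 0.0326) and was higher there than with siGOLM1-2 (log2 fold change 0.26, SE 0.08 and adjusted p = 0.0108, but 0.12 and not called with library totals alone), while with siGOLM1-2 it was at -0.04 (SE 0.08) against control, not called. The rise was called in 13 of 21 alternatives. It was not called with control replicates 1 and 2 alone (0.17), nor without control replicate 3 or 4 or siGOLM1-1 replicate 2 or 3 (0.17 to 0.26), nor with library totals alone (0.15).

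TMED9 and TMED1 were higher with siGOLM1-1. TMED9 stood at 211, 211, 233 and 226 CPM in control, at 262, 330.3, 283 and 309 CPM with siGOLM1-1 and at 269, 266, 256 and 298 CPM with siGOLM1-2. All knockdown libraries were above all control libraries. It rose with siGOLM1-1 (log2 fold change 0.43, SE 0.08 and adjusted p = 0.000634) and with siGOLM1-2 (log2 fold change 0.31, SE 0.08 and adjusted p = 0.00678, though 0.26 and not called with control replicates 3 and 4 alone). No difference between the siRNAs was called (0.12, SE 0.08). TMED1, which binds a member of the interleukin receptor family, stood at 23.0, 25.9, 22.0 and 20.9 CPM in control, at 27.9, 34.7, 30.1 and 31.3 CPM with siGOLM1-1 and at 25.6, 25.0, 23.5 and 28.2 CPM with siGOLM1-2, and rose with siGOLM1-1 (log2 fold change 0.44, SE 0.09 and adjusted p = 0.00139). It was also higher with siGOLM1-1 than with siGOLM1-2 (log2 fold change 0.28, SE 0.09 and adjusted p = 0.0186) in 18 of 21 alternatives, but not with library totals alone (0.15) nor without siGOLM1-1 replicate 2 or siGOLM1-2 replicate 3 (0.22 to 0.33). It was also called with siGOLM1-2 (0.23) when library totals alone were used. In the annotation 51.3% of its exon length lies opposite exons of DNM2, which reached 164 CPM. The strand setting of the count is not given in the sources used here, so the level of TMED1 is uncertain.

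TMED4 and TMED3 were lower with siGOLM1-1 than with siGOLM1-2, in contrast to TMED10. TMED4 (ENSG00000158604) stood at 93.9, 97.3, 95.1 and 91.1 CPM in control, at 67.8, 69.8, 70.4 and 65.1 CPM with siGOLM1-1 and at 103, 102, 103 and 109 CPM with siGOLM1-2. The siGOLM1-1 libraries were below all others and the siGOLM1-2 libraries above all others. TMED4 fell with siGOLM1-1 (log2 fold change -0.47, SE 0.06 and adjusted p = 1.37e-05) and differed between the siRNAs (log2 fold change -0.61, SE 0.06 and adjusted p = 7.69e-07). Its small rise with siGOLM1-2 (log2 fold change 0.14, SE 0.06 and adjusted p = 0.047) was called in 7 of 21 alternatives. It was not called with either control pair alone (0.12 and 0.18) nor without any 1 of 10 libraries (0.12 to 0.18, all but control replicate 2 and siGOLM1-1 replicate 4).

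TMED3 (ENSG00000166557) stood at 158, 153, 162 and 164 CPM in control, at 143, 187, 159.7 and 165 CPM with siGOLM1-1 and at 234, 229, 214 and 252 CPM with siGOLM1-2. Here the siGOLM1-2 libraries were above all 8 others, which overlapped. TMED3 rose 1.46-fold with siGOLM1-2 (log2 fold change 0.55, SE 0.08 and adjusted p = 0.000103), was at 0.04 (SE 0.08) with siGOLM1-1 and differed between the siRNAs by -0.50 (SE 0.08, adjusted p = 0.000125).

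TMED5 fell with siGOLM1-2. It stood at 78.1, 82.1, 79.2 and 74.5 CPM in control, at 69.1, 67.0, 83.4 and 61.3 CPM with siGOLM1-1 and at 52.6, 58.7, 56.4 and 58.7 CPM with siGOLM1-2. The siGOLM1-2 libraries were the lowest, and siGOLM1-1 replicate 3 was the highest of the 12. The fall with siGOLM1-2 was log2 fold change -0.47, SE 0.09 and adjusted p = 0.000582. The value with siGOLM1-1 was -0.16 (SE 0.09), not called, and became -0.25, called, without siGOLM1-1 replicate 3. Between the siRNAs it was at 0.31 (SE 0.09, adjusted p = 0.00753), and at 0.18, not called, with library totals alone.

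TMED8 rose with siGOLM1-1 (log2 fold change 0.38, SE 0.13 and adjusted p = 0.0253). It stood at 38.8, 35.1, 26.7 and 29.9 CPM in control, at 46.5, 40.2, 48.9 and 33.7 CPM with siGOLM1-1 and at 37.8, 38.9, 36.6 and 33.9 CPM with siGOLM1-2. The groups overlapped, and control replicates 1 and 2 were the higher pair. The rise was 0.20, not called, with that pair alone and 0.59 with replicates 3 and 4 alone. Against the same pairs the siGOLM1-2 values were -0.01, not called, and 0.39, called, beside 0.17 (SE 0.13), not called, with all controls. The siGOLM1-1 rise was called in 14 of 21 alternatives, and lost its call without control replicate 3 or 4 or siGOLM1-1 replicate 1 or 3 (0.29 to 0.47) and with library totals alone (0.32). TMED7 was not called in any comparison (-0.01, -0.18 and 0.17, SE 0.14), with siGOLM1-1 replicate 3 at 50.3 CPM the highest of its 12 libraries.

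**Figure D4:**
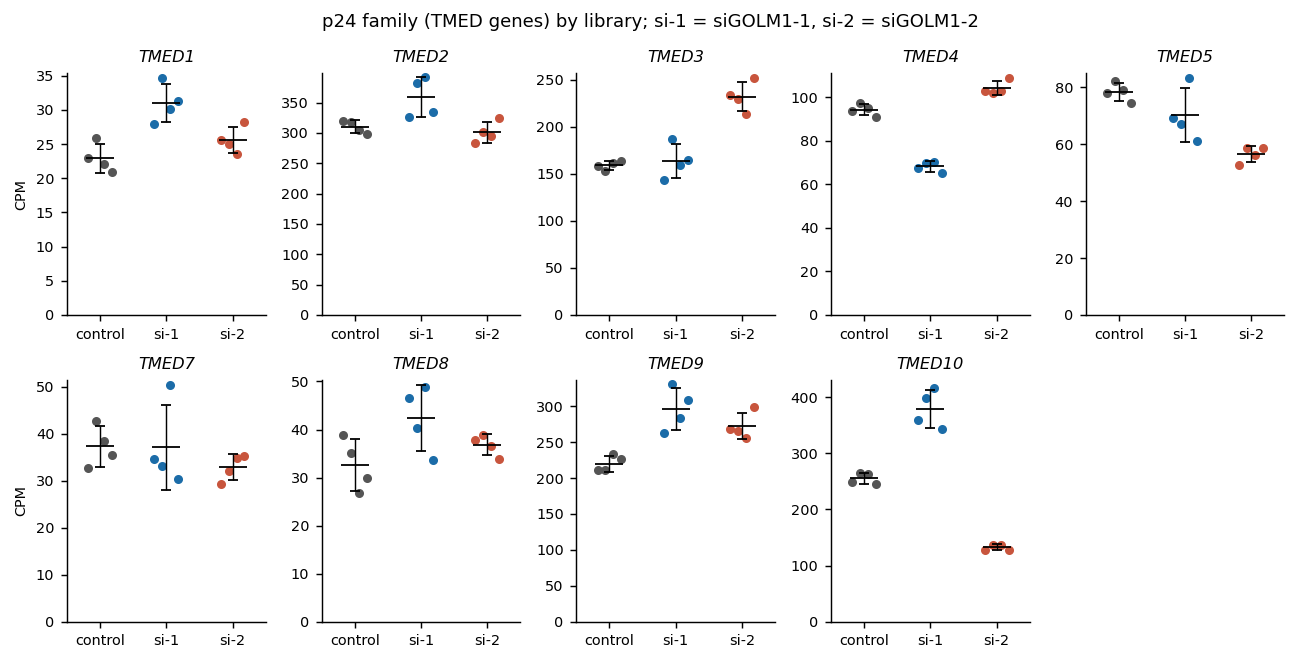
CPM per library of the 9 TMED genes in control, siGOLM1-1 (si-1) and siGOLM1-2 (si-2); points are libraries in replicate order, lines are group means, bars are SD (n = 4) and axes start at 0. TMED10 spans 128 to 416 CPM with separate groups, TMED3 is highest in the siGOLM1-2 libraries, TMED4 is lower in the siGOLM1-1 libraries, and TMED7 overlaps among all groups.

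Of the lectin cargo receptors, LMAN1 (ENSG00000074695), which carries coagulation factors and other glycoproteins out of the endoplasmic reticulum, fell with siGOLM1-2. Over all 3 lectins, 1 rose with siGOLM1-1, 2 rose and 1 fell with siGOLM1-2, and 1 was higher and 1 lower between the siRNAs, where library totals alone gave 1 and 2. With 3 genes these counts are not read against the 47.5%, 45.0% and 54.4% of all genes that were called. LMAN1 stood at 128, 126, 97.1 and 95.3 CPM in control, at 123, 114, 144 and 97.1 CPM with siGOLM1-1 and at 56.7, 59.9, 61.7 and 51.7 CPM with siGOLM1-2. The siGOLM1-2 libraries were below the other 8, and control replicates 1 and 2 were above replicates 3 and 4. LMAN1 was 1.94-fold lower with siGOLM1-2 than in control (log2 fold change -0.96, SE 0.13 and adjusted p = 4.39e-05) and 2.08-fold higher with siGOLM1-1 than with siGOLM1-2 (log2 fold change 1.05, SE 0.13 and adjusted p = 1.02e-05). The fall was -1.15 with control replicates 1 and 2 alone and -0.73 with replicates 3 and 4 alone. With siGOLM1-1 the value was 0.10 (SE 0.13), not called with all controls or either pair (-0.09 and 0.32).

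LMAN2, a lectin that cycles between the endoplasmic reticulum and the Golgi, was tight in control, with libraries of 212, 213, 213 and 213 CPM. It reached 229.9, 261, 227 and 257 CPM with siGOLM1-1 and 249.6, 246, 246 and 251 CPM with siGOLM1-2. Every knockdown library was above every control library. The rises were log2 fold change 0.20, SE 0.06 and adjusted p = 0.0181 with siGOLM1-1 and log2 fold change 0.22, SE 0.06 and adjusted p = 0.00989 with siGOLM1-2. The first, called in 16 of 21 alternatives, was not called with either control pair alone (0.20 in each), with library totals alone (0.14) or without siGOLM1-1 replicate 2 (0.16), and the second was called in all 21 alternatives. LMAN2L, its paralog, ran from 33.1 to 34.6 CPM in control, from 32.0 to 34.6 CPM with siGOLM1-1 and from 36.1 to 43.4 CPM with siGOLM1-2. It rose with siGOLM1-2 (log2 fold change 0.21, SE 0.07 and adjusted p = 0.0224) and was lower with siGOLM1-1 than with siGOLM1-2 (log2 fold change -0.23, SE 0.07 and adjusted p = 0.0101). The rise, called in 15 of 21 alternatives, was not called with either control pair alone (0.19 and 0.24) nor without control replicate 4 or siGOLM1-2 replicate 1 or 4 (0.16 to 0.25).

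**Figure D5:**
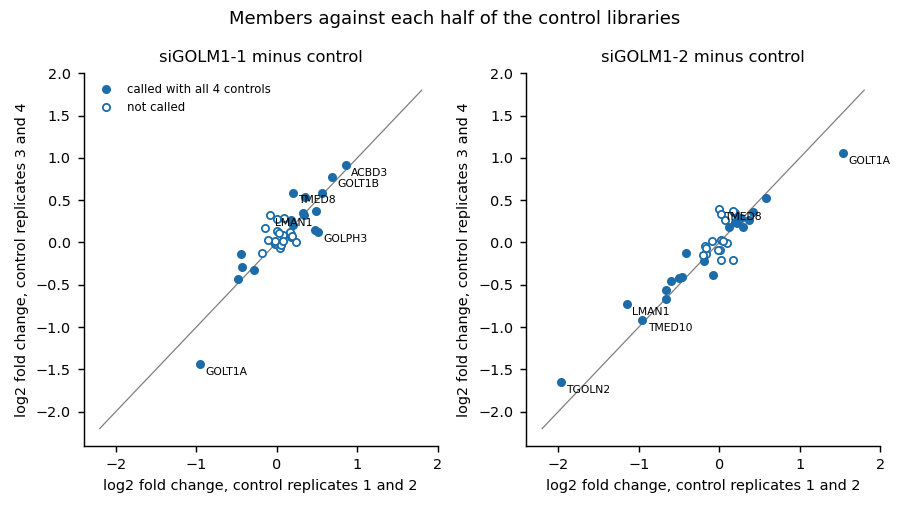
Log2 fold change of each member against control replicates 1 and 2 alone (horizontal axis) and against replicates 3 and 4 alone (vertical axis), for siGOLM1-1 (left) and siGOLM1-2 (right); filled points are called with all 4 controls and the line marks equal values. On the right TGOLN2 lies at -1.97 and -1.65 and LMAN1 at -1.15 and -0.73, and on the left GOLPH3 lies at 0.51 and 0.13, off the line.

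Per kilobase of annotated exon (GENCODE release 29, the union of a gene's exons), levels in control differed widely among the members. The highest were LMAN2 at 90.3, TMED9 at 90.2, TMED2 at 81.0, TMED10 at 51.3 and TGOLN2 at 50.2 CPM per kb. The lowest were GOLT1A at 3.07, TMED8 at 4.19, TRIP11 at 4.29 and GCC2 at 4.41 CPM per kb. With siGOLM1-2, TMED10 was at 26.7 and TGOLN2 at 14.2 CPM per kb, below GOLPH3 at 38.7 CPM per kb, which in control was lower than both (39.7). Per-length levels depend on the annotated union, which for TMED3 is 19470 bases long, and differences between neighbours in this order were not tested.

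The 3 further lists of Golgi genes were chosen, as the members were, with earlier results of these data known. Calls of single genes in these lists were not followed through the alternatives. Some of these genes also split by control pair. In control replicates 1 to 4, STX6 stood at 36.8, 36.4, 27.8 and 27.7 CPM, BICD1 at 27.4, 23.5, 18.9 and 19.3 CPM and MCFD2 at 214, 215, 184 and 166 CPM. Of 23 partners of the golgins (GTPases, their regulators and membrane adaptors), 7 rose and 6 fell with siGOLM1-1, 5 rose and 4 fell with siGOLM1-2, and 9 were higher and 8 lower between the siRNAs. The share called was 56.5%, 39.1% and 73.9%, beside 47.5%, 45.0% and 54.4% of all genes tested. Medians were 0.12, -0.01 and 0.04 on the log2 scale. GBF1, the exchange factor that loads Golgi ARF1, ran from 129 to 167 CPM in control and from 52.5 to 68.6 CPM with siGOLM1-1 (log2 fold change -1.29, SE 0.09 and adjusted p = 1.6e-07), and was at -0.09 with siGOLM1-2, not called. RAB1B, the GTPase that recruits USO1 and GOLGA2, fell with siGOLM1-1 (log2 fold change -0.78, SE 0.07 and adjusted p = 7.49e-07) and was at 0.14 with siGOLM1-2, not called. RAB6B, a GTPase bound by TMF1, fell with both (log2 fold changes -1.93 and -0.54, SE 0.15 and 0.14), from 5.82 to 7.64 CPM in control. SYS1, a step in the chain that recruits ARL1 and with it the GRIP-domain golgins, fell with siGOLM1-2 (log2 fold change -0.67, SE 0.10 and adjusted p = 9.52e-05). STX6, a SNARE of the trans-Golgi network, rose with both (0.53 and 0.77), and BICD1, a dynein adaptor of RAB6 vesicles, rose with siGOLM1-2 (0.79, SE 0.12) and was at -0.29, not called, with siGOLM1-1.

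Of 18 other cargo receptors, 15 were tested (MIA2, TMED6 and LMAN1L were not). With siGOLM1-1 8 rose and 3 fell, with siGOLM1-2 7 rose and 0 fell, and between the siRNAs 2 were higher and 5 lower with siGOLM1-1. Of all genes tested 23.7% rose and 23.8% fell, 21.8% rose and 23.2% fell, and 27.9% were higher and 26.5% lower. Medians were 0.23, 0.26 and -0.11. MCFD2, the partner of LMAN1 in carrying coagulation factors, rose with siGOLM1-1 (log2 fold change 0.49, SE 0.10 and adjusted p = 0.000988) and with siGOLM1-2 (log2 fold change 0.79, SE 0.10 and adjusted p = 2.47e-05), where LMAN1 itself fell. M6PR and SORT1, sorting receptors for lysosomal enzymes, rose with both (M6PR 0.54 and 0.75, SORT1 0.63 and 0.35), as did ERGIC3 (0.30 and 0.40). CNIH1, a cornichon receptor for growth factor cargo, ran from 102 to 114 CPM in control and from 26.1 to 39.2 CPM with siGOLM1-1. That was a 3.31-fold fall (log2 fold change -1.73, SE 0.10 and adjusted p = 2.6e-08), beside 0.04 with siGOLM1-2. KDELR1, which returns escaped proteins to the endoplasmic reticulum, fell with siGOLM1-1 (log2 fold change -0.97, SE 0.08 and adjusted p = 5.92e-07) and was at -0.13 with siGOLM1-2, not called.

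Of 26 other Golgi membrane proteins, 25 were tested, GOLM1 among them. With siGOLM1-1 10 rose and 5 fell, with siGOLM1-2 9 rose and 4 fell, and between the siRNAs 8 were higher and 9 lower. These came to 60.0%, 52.0% and 68.0% called, beside 47.5%, 45.0% and 54.4% of all genes. GOLM1, the target of both siRNAs, was called in each comparison and is counted in these shares. Medians were 0.14, 0.03 and -0.10. ZDHHC9, the palmitoyltransferase that works with GOLGA7, fell with siGOLM1-1 (log2 fold change -0.52, SE 0.06 and adjusted p = 4.6e-06) and was at -0.01 with siGOLM1-2. YIPF6 rose with siGOLM1-1 (log2 fold change 0.51, SE 0.09 and adjusted p = 0.000526) and was at -0.08 with siGOLM1-2, not called. YIPF1, of the same family of multi-pass Golgi proteins, rose with siGOLM1-2 (log2 fold change 0.75, SE 0.09 and adjusted p = 1.64e-05), fell with siGOLM1-1 (log2 fold change -0.27, SE 0.09 and adjusted p = 0.0241) and differed by -1.02 on the log2 scale between the siRNAs. Its siGOLM1-1 libraries (16.4 to 20.4 CPM) overlapped with the control (20.2 to 23.0 CPM). TMEM87A rose with siGOLM1-2 (log2 fold change 0.63, SE 0.06 and adjusted p = 5.43e-06) and was at 0.15 with siGOLM1-1.

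The authors' deposited tables, made with DESeq2, called 13 members higher and 5 lower with siGOLM1-1 and 10 higher and 9 lower with siGOLM1-2. Their calls were the same as those given here for 36 and 35 members. TMEM165 differed with siGOLM1-1, and GCC2 and TMF1 differed with siGOLM1-2. No log2 fold change in the authors' deposited tables was more than 0.02 from the edgeR value.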

How the data were processed

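RNA sequencing of A549 cells was deposited as whole-number read counts per gene, and, per the labels' protocols, libraries came from a stranded mRNA kit read in paired-end mode. Per the submitters' processing notes the authors used bcl2fastq 2.20, STAR 2.7.3, the hg19 build and DESeq2 1.24.0. The read counter, annotation and strand setting are not given in the sources used here. Per the file headers, the authors' deposited result tables give a mean normalised signal (baseMean), a log2 fold change with its SE, a test score (stat), and p-values before and after adjustment. They were used only to compare calls. Raw counts were tested with edgeR 4.0.16 in R 4.3.3 (filterByExpr, TMM, robust quasi-likelihood fit of all 12 libraries, 9 residual degrees of freedom, common biological coefficient of variation 0.146), adjusted over 17532 genes and called under 0.05. Of the 57773 genes, 24653 had no count. Libraries of 41.6 M to 71.3 M counts were grouped by the labels, and SE covers the spread between these replicates. SE is the absolute log2 fold change over the square root of F.

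Alternatives were DESeq2 1.42.0, other scaling and filters, a replicate block, fits of 2 groups, either pair of control libraries and leaving out each library. Replicates of a group differed by more than counting noise. Every member could be named, and of each other list the 3 genes with the smallest p per comparison. Members and lists were chosen with earlier results of these data known. Exon lengths and overlaps came from exon positions in GENCODE release 29 (GRCh38), and promoters from RefSeq. The authors' processing used the hg19 build, so these exons may differ from the gene models that were counted. PECAM1, a marker considered, was not analysed here.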

Additional observations from a re-analysis of the deposited data

Results flagged for a closer look

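Within the groups of 4 libraries, 5 of 111 sets of member values had 1 library set apart from the other 3 by a gap above Dixon's 95% critical value, as a share of the whole range. Chance sets apart about 1 in 20. LMAN2L in control replicate 4 was at 33.1 CPM, below the next library at 34.4 CPM, in a range that ended at 34.6 CPM. GOLGA4 in siGOLM1-2 replicate 2 was at 211 CPM, above the next at 193.8 CPM. TMED4 in siGOLM1-2 replicate 4 was at 108.9 CPM, above the next at 103 CPM. CUX1 in siGOLM1-1 replicate 1 was at 154 CPM, above the next at 145.0 CPM. TRIP11 in siGOLM1-2 replicate 4 was at 39.5 CPM, below the next at 52.1 CPM.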

How the results depend on the processing

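Counts of called members depended on a few choices, and the cause was not tested. With control replicates 3 and 4 alone, 3 members in place of 5 fell with siGOLM1-1, as GOLPH3L and TGOLN2 were lost. Leaving out 1 library at a time gave 3 to 6 for this count, and 3 without control replicate 1, control replicate 2, siGOLM1-1 replicate 2 or siGOLM1-1 replicate 4. With library totals alone, 7 members in place of 17 were higher with siGOLM1-1 than with siGOLM1-2, while 9 in place of 6 were lower, and calls over all genes moved from 51.2% to 37.4% higher. That scaling moved the same share from 48.4% to 59.2% with siGOLM1-2 and from 49.8% to 43% with siGOLM1-1. With no filter beyond 1 count, 10 members rose with siGOLM1-1, 7 rose and 9 fell with siGOLM1-2, and 13 were higher and 5 lower between the siRNAs. With only the groups compared in the fit, 9 rose with siGOLM1-1 and 13 were higher between the siRNAs. Leaving out 1 library gave 8 to 14 rises and 3 to 6 falls with siGOLM1-1, 7 to 10 rises and 8 to 11 falls with siGOLM1-2, and 12 to 17 higher and 6 to 7 lower between the siRNAs. Over the 21 alternatives, calls were lost for 7, 8 and 11 members and gained for 4, 2 and 5 in the 3 comparisons, and no call turned its direction. Sign changes of values called in neither setting were not counted. Correlations of deviations between libraries with the same replicate number ran from -0.2 to 0.35. Between libraries of different groups and different numbers they ran from -0.494 to 0.358. These ranges cannot decide whether the numbers pair the libraries, as deviations within a group sum to 0. With a replicate block in the fit, 12 members rose and 5 fell with siGOLM1-1, 9 rose and 11 fell with siGOLM1-2 (TMED4 at 0.15 was lost), and 17 and 6 differed between the siRNAs. How depth limits single members was not tested.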
